A study of Mus musculus with 6 samples.

Results

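Contactins are a family of cell adhesion proteins of the nervous system, and the contactin-associated proteins are their membrane partners. The genes were taken by name: the 6 contactins Cntn1, Cntn2, Cntn3, Cntn4, Cntn5 and Cntn6 and the 3 contactin-associated genes Cntnap1, Cntnap2 and Cntnap4, 9 of the 36814 genes in the deposited table, each with 1 row. They were followed in 6 pools of mouse proprioceptors, the sensory neurons that report muscle length and force. In 3 pools the neurons supplied the tibialis anterior (TA), which flexes the ankle, and in 3 the gastrocnemius (GS), which extends it. All pools came from the Pv::YFP reporter line, named for parvalbumin. The tracer ctb-555 was injected into a muscle at postnatal day 0, and 25 to 30 labelled neurons per sample were isolated manually at postnatal day 1 and combined. No other allele or treatment is named in the labels, and neither strain nor sex is stated there. The pools are called biological replicates, but whether they came from separate animals is not stated, so p-values measure the spread between these pools.

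A contactin is held on the outer face of the membrane by a lipid anchor and carries immunoglobulin and fibronectin type III domains. A contactin-associated protein crosses the membrane and links the pair to the cytoskeleton. In myelinated axons the Cntn1 and Cntnap1 proteins form the axonal side of the paranodal junction beside the node of Ranvier, and the Cntn2 and Cntnap2 proteins gather potassium channels in the next domain, the juxtaparanode. The Cntn5 and Cntnap4 proteins have been described together on the spinal terminals of proprioceptors, where they take part in contact with inhibitory boutons. Nrcam and Chl1 are named as their partners in that contact.

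Net reads per library, which is the term used here because the deposited table holds some values below 0, came to between 7038296 and 21125960. Every GS library detected fewer genes than every TA library, with 12658 to 15432 genes with reads in GS, lowest in GS replicate 2, and 15530 to 16302 in TA. Of the genes tested, 78.5% to 87.5% were above 1 RPKM in the GS libraries and 89.5% to 91.7% in the TA libraries. The part of this difference in detection in the member values that are near 0 in GS libraries was not tested. Levels are net RPKM, reads scaled to transcript length and library size, and where 3 values are given for a muscle they stand in the order of replicates 1, 2 and 3. Proprioceptor markers (Ntrk3, Runx3, Etv1, Pvalb, Spp1, Whrn, Slc17a7 and Nefh) summed to 638 to 751 RPKM in the TA libraries and 773 to 847 RPKM in the GS libraries. Etv1 and Nefh made up most of each sum, and single markers did not follow it. Pvalb was at 70.1 ± 22.8 RPKM in the TA pools and 15.3 ± 14.2 RPKM in the GS pools, without overlap, with a limma adjusted p of 0.168, and Spp1 was higher in GS, at 5.36 ± 2.25 and 56.5 ± 16.9 RPKM (SD, n = 3), with a limma adjusted p of 0.0150. Markers of other cells were unevenly spread in 2 libraries. GS replicate 2 had the highest sum over 8 nociceptor markers, 171 RPKM against 29.1 to 80.0 RPKM in the other 5 libraries, but most of it was Calca, and the other 7 markers summed to 38.1 RPKM there, against 21.7 to 36.6 RPKM elsewhere. That library also had the highest sum over 6 satellite glia markers, 135 RPKM against 51.0 to 101 RPKM. TA replicate 3 had the highest sum over 8 skeletal muscle markers, 269 RPKM against 0.129 to 5.34 RPKM. It was also highest over 6 connective and vascular markers, at 28.2 RPKM against 0.423 to 6.26 RPKM. Over 6 blood and immune markers it had 26.1 RPKM, against 0 to 5.11 RPKM.

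Cntn1 and Cntnap2 were the most abundant members and Cntn6 the least. The mean levels over the 6 libraries fell in the order Cntn1 (52.5 RPKM), Cntnap2 (38.8), Cntnap1 (14.3), Cntn2 (11.9), Cntnap4 (6.35), Cntn4 (4.53), Cntn3 (1.505), Cntn5 (1.45) and Cntn6 (0.879). Cntn1 was above Cntnap2 in 5 of 6 libraries, with a mean within-library difference of 0.43 and an SD of 0.42 on the log2(RPKM + 1) scale. Cntnap2 was above Cntnap1 in 6 of 6 libraries, by 1.42 with an SD of 0.48. Every lower pair of neighbours in this order differed by less than 1 SD of the within-library difference, so the order from Cntnap1 down to Cntn6 was not resolved between neighbours. In pools of cells, fewer neurons with a transcript and less transcript per neuron cannot be told apart.

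**Figure D1:**
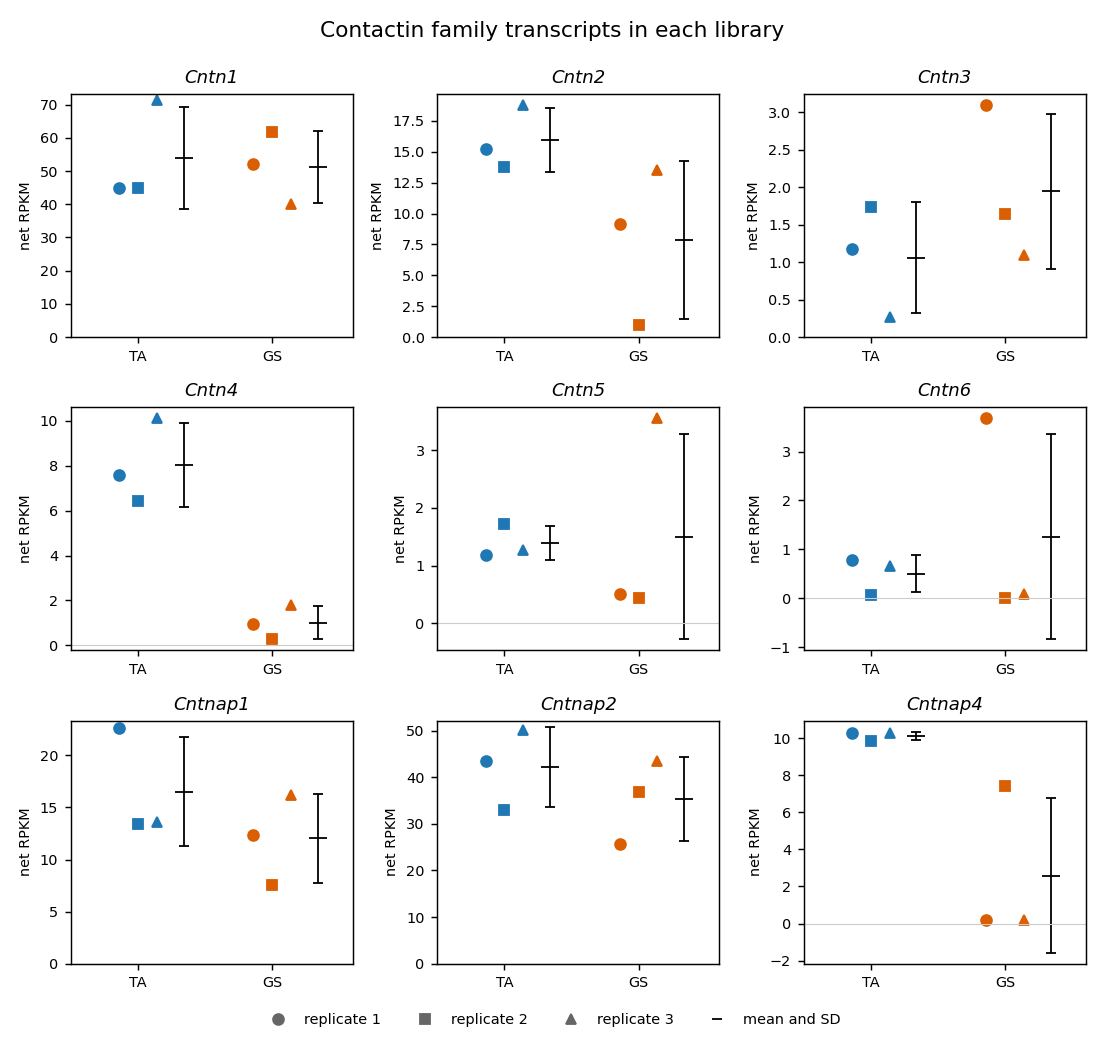
Net RPKM (vertical axes, each with its own scale) of the 9 members in 3 TA libraries and 3 GS libraries (points, shaped by replicate), with the mean and SD of each muscle in black. Cntn4 lies at 6.45 to 10.1 RPKM in the TA pools and 0.296 to 1.79 RPKM in the GS pools, and Cntnap4 has 1 GS library, replicate 2, near the TA values.

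The comparison of the 2 muscles asked whether TA and GS proprioceptors differ in these genes. No member passed the test over all genes. Cntn4 and Cntnap4 had the largest differences, both with higher values in TA, and the 95% intervals of the differences of Cntn1, Cntn3, Cntn5, Cntnap1 and Cntnap2 included 0, as did that of Cntn2. Of the 9 members, 8 reached a mean of 1 RPKM over the 6 libraries and were tested, each with a mean of at least 1 RPKM in both muscles, and Cntn6 did not reach it. With limma on log2(RPKM + 1) and Benjamini-Hochberg adjustment over the 10828 genes tested, 0 of these 8 were called at an adjusted p under 0.05. Over all genes tested 0.305% were called, 0.175% higher in TA and 0.129% higher in GS, so at this rate no call among so few genes is the usual outcome. At an unadjusted p under 0.05 there were 2 members, Cntn4 and Cntnap4, both towards TA, where 8.30% of all genes were, and 0 towards GS, where 2.12% were (10.4% in both directions together). In 3 members (Cntn2, Cntn4 and Cntnap4) the values of the muscles did not overlap, all higher in TA, against 13.1% of all genes in that direction, and in 0 members towards GS, against 3.48%. The median log2 fold change (TA minus GS) was 0.35 over the 8 members and 0.24 over all genes tested. Centring each library on its median changed the split of called genes from 19 higher in TA and 14 higher in GS to 11 and 17, and brought no member past the threshold.

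**Figure D2:**
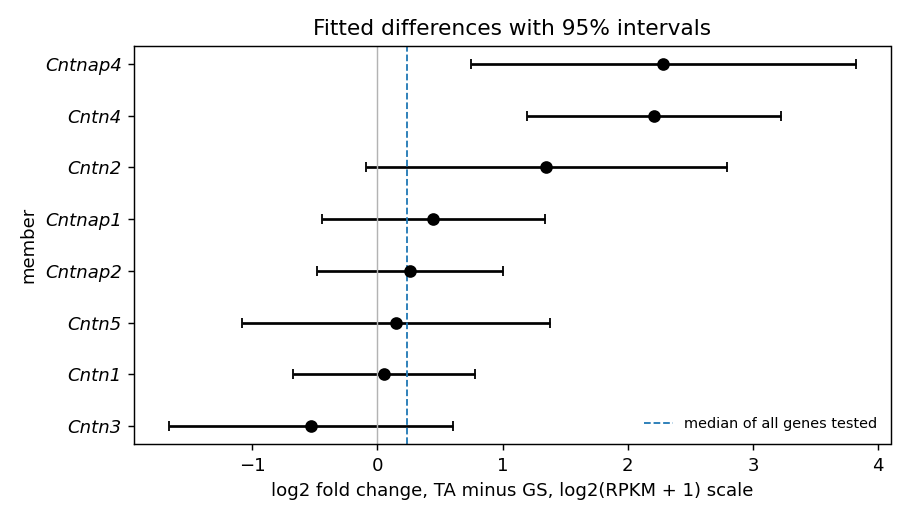
Fitted log2 fold change (horizontal axis, TA minus GS, from log2(RPKM + 1) values) of the 8 members tested, with 95% intervals from limma as bars. The dashed line is the median of all 10828 genes tested, 0.24, and the intervals of Cntn4 (1.20 to 3.23) and Cntnap4 (0.75 to 3.82) lie above it.

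Cntn4 (ENSMUSG00000064293), a contactin that binds the amyloid precursor protein and is known for a part in axon targeting, had the smallest unadjusted p of the members. Its level was 7.58, 6.45 and 10.1 RPKM in the TA pools and 0.973, 0.296 and 1.79 RPKM in the GS pools. Every TA library was above every GS library, and the lowest TA value was more than 3 times the highest GS value. These values rested on 991, 727 and 2854 net reads in TA and 139, 50 and 259 in GS. The means were 8.04 ± 1.87 RPKM in the TA pools and 1.02 ± 0.748 RPKM in the GS pools (SD, n = 3), a 7.89-fold ratio. The log2 fold change was 2.21 ± 0.46 (SE), or 1.97 relative to the median of all genes, with an unadjusted p of 0.000592 and a limma adjusted p of 0.113. It ranked 56th of the 10828 genes by p. Leaving out each library in turn gave log2 fold changes of 1.93 to 2.48 and adjusted p-values of 0.0940 to 0.534. The difference was 2.05 without TA replicate 3, the library with the muscle transcripts, and 1.93 without GS replicate 2. In the authors' deposited table for TA, which holds 395 genes or 1.07% of those in the six-library table, Cntn4 had a ratio of GS over TA of 0.138, a p of 0.000623 and an adjusted p of 0.0822. The authors' deposited table was made from the same libraries, with 1 value per muscle, and is not separate evidence. Its p-values did not come from the limma fit, so its adjusted p cannot be set directly against the limma value of 0.113.

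Set against Cntn1 of the same library, a ratio that does not depend on the scaling between libraries, Cntn4 stood at 16.9%, 14.3% and 14.1% of the Cntn1 RPKM in the TA pools. In GS replicates 1, 2 and 3 it stood at 1.87%, 0.479% and 4.48%. The TA and GS ratios did not overlap. Of the RPKM summed over the 6 contactins, Cntn4 made up 9.38% to 10.7% in TA and 0.455% to 2.99% in GS. Cntn1 made up 63.3% to 69.7% in TA and 66.6% to 94.9% in GS, with the highest share in GS replicate 2.

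**Figure D3:**
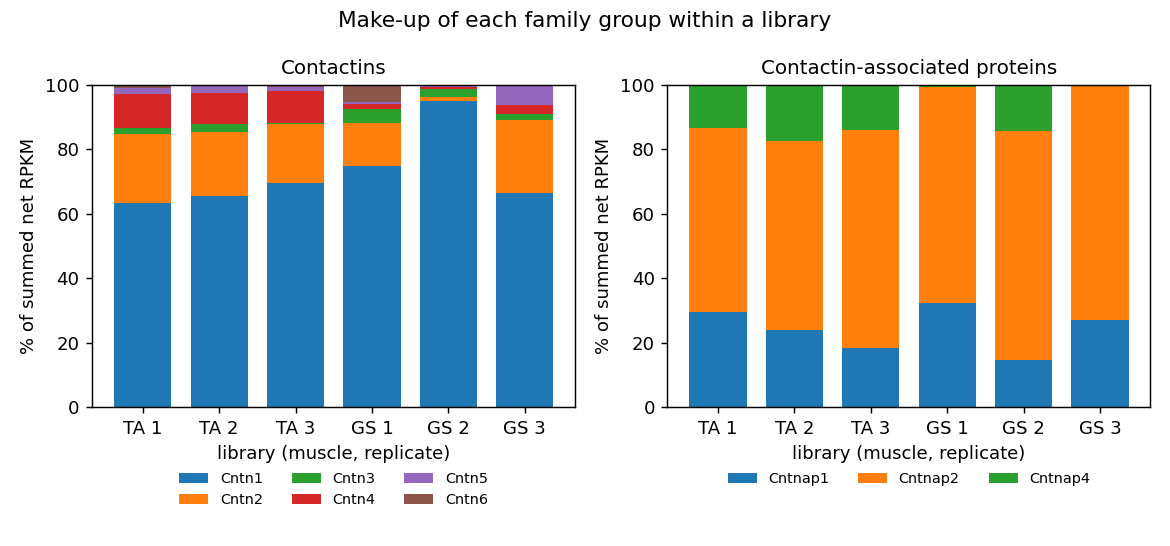
Share of each member (coloured segments, %) in the RPKM summed over the 6 contactins (left) and over the 3 contactin-associated genes (right) in each library (horizontal axis). The Cntn4 segment is 9.38% to 10.7% in the TA libraries and at most 2.99% in the GS libraries, and the Cntnap4 segment is under 1% in GS replicates 1 and 3.

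Promoter sequence was set beside these levels for the most abundant contactin and for the contactins whose muscle values did not overlap, Cntn2 and Cntn4. RefSeq (GRCm38.p6) gave windows of 300 bases, 250 before a transcript start and 50 after it, for 7 of the 9 members, 12 windows in all, and Cntnap1 and Cntnap4 were not matched. Capitals mark the dinucleotide CG, which reads the same on both strands. At least 1 CG is present in 94.6% of all 32851 windows of this length, with a median of 7. The windows lie at chr15:92050915-92051214 (plus strand) for Cntn1, chr1:132542891-132543190 (minus strand) for Cntn2 and chr6:106118692-106118991 (plus strand) for Cntn4.
Cntn1: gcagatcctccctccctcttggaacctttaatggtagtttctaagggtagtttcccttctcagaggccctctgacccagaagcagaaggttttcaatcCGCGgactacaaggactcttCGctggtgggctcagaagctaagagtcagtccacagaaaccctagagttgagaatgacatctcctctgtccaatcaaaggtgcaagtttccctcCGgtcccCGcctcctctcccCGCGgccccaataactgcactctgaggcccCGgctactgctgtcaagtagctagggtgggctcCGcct
Cntn2: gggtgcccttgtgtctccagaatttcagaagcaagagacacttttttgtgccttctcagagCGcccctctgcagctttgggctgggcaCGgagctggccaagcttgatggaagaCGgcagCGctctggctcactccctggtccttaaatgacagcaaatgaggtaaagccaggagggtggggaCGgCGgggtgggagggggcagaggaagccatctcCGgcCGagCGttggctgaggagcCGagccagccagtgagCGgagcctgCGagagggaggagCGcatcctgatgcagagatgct
Cntn4: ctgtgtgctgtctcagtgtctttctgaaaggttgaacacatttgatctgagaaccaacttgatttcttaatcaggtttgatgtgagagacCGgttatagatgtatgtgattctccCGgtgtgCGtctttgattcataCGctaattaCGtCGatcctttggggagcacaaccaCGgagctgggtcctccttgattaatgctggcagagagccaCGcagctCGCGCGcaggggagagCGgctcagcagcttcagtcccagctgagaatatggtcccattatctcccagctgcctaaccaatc
The Cntn1 window held 9 CG, the Cntn2 window 13 and the Cntn4 window 12, all above the median of all windows. The windows of the other starts of these genes were below it, with 5 and 4 CG at the other Cntn1 starts and 4 at the other Cntn4 start, and the window with the most CG is the one shown for each. Over the 12 windows of members the count ran from 0 in Cntn3 to 26 in both Cntn5 windows, and both genes had low levels in these neurons. The Cntn3 window belongs to a start 108.4 kb inside the gene as annotated in GENCODE M21. The Cntn5 starts lie 0 and 49 bases inside theirs. The Cntn4 start shown lies 441.3 kb inside the gene as GENCODE M21 annotates it on the same build, while the Cntn1 start shown is that annotation's first base. The deposited values are summed per gene, so which start gave the Cntn4 reads was not tested.

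Cntn1 and Cntnap1, the paranodal pair, were present in every library. Cntn1 was at 44.9, 45.0 and 71.5 RPKM in the TA pools and 52.1, 61.8 and 39.9 RPKM in the GS pools. The muscles overlapped, with the highest value in TA replicate 3 and the lowest in GS replicate 3. The log2 fold change was 0.06 ± 0.33 (SE), with a 95% interval of -0.67 to 0.78. A difference of up to about those sizes in either direction is thus compatible with these 3 pools a muscle. The direction of the fitted Cntn1 value changed with the scaling, to -0.15 with median centring. Cntnap1, which anchors the paranodal complex, was at 22.6, 13.4 and 13.6 RPKM in the TA pools and 12.3, 7.56 and 16.2 RPKM in the GS pools. The muscles overlapped, and the log2 fold change was 0.45 ± 0.40 with a limma adjusted p of 0.740. The Cntnap1 gene is overlapped on the opposite strand by Plekhh3 and Ccr10, to which at most 32 net reads were assigned in any library, against 876 to 2627 for Cntnap1.

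Cntn2 and Cntnap2, the juxtaparanodal pair, differed in how steady they were. Cntnap2 was at 43.6, 33.0 and 50.2 RPKM in the TA pools and 25.7, 36.9 and 43.5 RPKM in the GS pools. The muscles overlapped, and the log2 fold change was 0.26 ± 0.34 (SE) with a 95% interval of -0.48 to 1.004. Cntn2, also known as TAG-1 and made by some glial cells as well as neurons, was at 15.3, 13.7 and 18.8 RPKM in the TA pools and 9.14, 0.946 and 13.5 RPKM in the GS pools. All TA values were above all GS values, but the gap between TA replicate 2 and GS replicate 3 was small, and GS replicate 2 was far below the rest. That library held 178 net reads of Cntn2 against 1453 or more in each other library. The log2 fold change of Cntn2 was 1.35 ± 0.65, with a 95% interval of -0.09 to 2.79 and a limma adjusted p of 0.517. Without GS replicate 2 it was 0.47.

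The SD of Cntn2 between GS libraries was 1.55 on the log2(RPKM + 1) scale, more than in 94.9% of the genes tested, while between TA libraries it was 0.22. The median gene had an SD of 0.62 in GS and 0.39 in TA. In GS replicate 2 the 10 Schwann cell markers summed to 139 RPKM, beside 64.0 and 103 RPKM in the other GS libraries and 141 to 186 RPKM in the TA pools, and much of each sum came from S100b and Pmp22. The myelin gene Mag reached at most 0.805 RPKM in any library. The part of these cells, and of the Calca transcripts of GS replicate 2, in the Cntn2 values was not tested.

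Cntnap4 and Cntn5, the pair described on proprioceptor terminals, followed different patterns. Cntnap4 (ENSMUSG00000031772, mm9 chromosome 8, 115093943 to 115406617, plus strand) was at 10.3, 9.85 and 10.2 RPKM in the TA pools and 0.210, 7.39 and 0.170 RPKM in the GS pools. The TA libraries were nearly equal, GS replicate 2 lay not far below them, and the other GS libraries were close to 0. The net reads were 983, 815 and 2122 in TA and 22, 916 and 18 in GS. The means were 10.1 ± 0.227 RPKM in the TA pools and 2.59 ± 4.16 RPKM in the GS pools (SD, n = 3), and the highest GS value was 43.6 times the lowest, against 1.04 times in TA. The SD between TA libraries on the log2(RPKM + 1) scale, 0.0296, was larger than that of 0.582% of genes tested, and the SD between GS libraries, 1.63, was larger than that of 95.9%.

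The log2 fold change of Cntnap4 was 2.28 ± 0.70 (SE), with an unadjusted p of 0.00768 and a limma adjusted p of 0.322. Without GS replicate 2 the log2 fold change was 3.22 and the adjusted p 0.0183, which passed the threshold. Without GS replicate 1 or 3 the log2 fold change was 1.83 or 1.80 and the adjusted p 0.438 or 0.317. Over all 12 alternatives the adjusted p ran from 0.0183 to 0.813. GS replicate 2, the only GS library with a high Cntnap4 value, was also the library with the highest nociceptor marker sum. Calca, which encodes the peptide CGRP, was at 133 RPKM there and at most 55.5 RPKM in the other 5 libraries. The purinergic receptor gene P2rx3 and the sodium channel gene Scn11a were also highest there, at 22.8 and 3.12 RPKM, against at most 17.2 and 1.30 RPKM elsewhere. Other markers of the list were not, since Tac1, which encodes substance P, was listed at 0 there and at 1.39 to 31.7 RPKM elsewhere, Trpv1 was listed at 0 there, and Scn10a, another sodium channel gene, was at 1.01 RPKM there and 3.85 RPKM in GS replicate 1. The part of nociceptors in the Cntnap4 value was not tested.

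Cntn5, also known as NB-2, was low in every library. It was at 1.19, 1.73 and 1.28 RPKM in the TA pools and 0.516, 0.436 and 3.55 RPKM in the GS pools. The highest value of Cntn5 was in GS replicate 3, the library with the lowest Cntnap4 value. The log2 fold change was 0.15 ± 0.56 (SE), with a 95% interval of -1.08 to 1.38. It was -0.06 with median centring and -0.37 with quantile normalization, so no direction was fixed. Nrcam, one of the adhesion partners of this pair, was at 3.83, 6.02 and 6.27 RPKM in the TA pools and 2.68, 6.84 and 1.41 RPKM in the GS pools. Chl1 was at 4.50, 0.306 and 3.29 RPKM in the TA pools and 1.58, 11.6 and 0.722 RPKM in the GS pools. Both had their highest value in GS replicate 2, and the muscles overlapped in both. These are levels in proprioceptor pools, and the neurons that form the inhibitory boutons were not sampled.

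Cntn3 and Cntn6, the remaining contactins, were at low levels. Cntn3 was at 1.18, 1.73 and 0.267 RPKM in the TA pools and 3.10, 1.64 and 1.10 RPKM in the GS pools. It was the member with the lowest fitted value, a log2 fold change of -0.53 ± 0.51 (SE) and a limma adjusted p of 0.757. Cntn6, also known as NB-3, was at 0.776, 0.0701 and 0.653 RPKM in the TA pools, while GS replicates 1 and 3 had 3.68 and 0.0911 RPKM and GS replicate 2 was listed at 0. All but 10 of the 409 net reads of Cntn6 in the GS libraries, 399 reads, came from GS replicate 1. Cntn6 lay below the filter and was not tested. All 38 mitochondrial genes of the table are at 0 as well. Whether a value of 0 for a member is absence of the transcript or a failed estimate was not tested.

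Cntn3, Cntn4, Cntn6 and Cntnap2 share chromosome 6, and the first 3 lie close together with Chl1. In mm9 coordinates Cntn3 spans 102113300 to 102414661 on the minus strand, Cntn6 spans 104442784 to 104813400 on the plus strand and Cntn4 spans 105627654 to 106649304 on the plus strand. These neighbours were not alike, since Cntn4 was higher in all TA libraries, Cntn3 overlapped between muscles and Cntn6 was highest in 1 GS library. Members of the family are also long genes. Cntnap2 spans 2241309 bases, and 3 of the genes tested span more. Cntn5 spans 1243885 bases and Cntn4 1021651 bases, while the median gene tested spans 21777 bases and 0.296% of genes tested exceed 1 Mb. Cntnap1 (20202 bases, chromosome 11) and Cntn2 (33516 bases, chromosome 1) are near the median. The longest member, Cntnap2, and the shortest, Cntnap1, were both among the 3 with the highest levels.

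The family has further members that were read from the same table. Cntnap5a was at 6.92, 9.61 and 9.02 RPKM in the TA pools and 4.06, 15.8 and 9.39 RPKM in the GS pools, with overlap and a log2 fold change of -0.02 ± 0.47 (SE). With Cntnap1, Cntnap2 and Cntnap4 it made 4 contactin-associated genes with a mean above 5 RPKM. Cntnap3, Cntnap5b and Cntnap5c did not reach a mean of 1 RPKM. Cntnap5c was at 0.685, 0.892 and 1.46 RPKM in the TA pools and was listed at 0 in all GS libraries. The authors' deposited table for TA lists Cntnap5c, with a p of 0.00312 and an adjusted p of 0.242. Cntnap3 was at 2.11, 0.156 and 2.31 RPKM in the GS pools and at most 0.274 RPKM in the TA pools, and the authors' deposited table for GS, which holds 0.907% of the table's genes, lists it with an adjusted p of 1.

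Proteins that act with the contactins at axonal domains were counted next. Of 22 genes listed for the node, paranode and juxtaparanode, 19 were tested, and 0 were called in either direction with limma. At an unadjusted p under 0.05 there were 3 towards TA and 0 towards GS, where 8.30% and 2.12% of all genes were, and the median log2 fold change was 0.27, beside 0.24 for all genes. Those with the highest levels were the spectrin Spnb2 (now Sptbn1), the membrane skeleton protein Epb4.1l3 (now Epb41l3), which links the contactin-associated proteins to the cytoskeleton, and the ankyrin Ank2. Their means in TA and GS were 169 ± 36.3 and 139 ± 24.5 RPKM for Spnb2, 103 ± 13.4 and 130 ± 32.4 RPKM for Epb4.1l3, and 101 ± 18.8 and 118 ± 15.8 RPKM for Ank2 (SD, n = 3). The juxtaparanodal potassium channel genes Kcna1 and Kcna2 were at 27.6 ± 1.54 and 31.9 ± 3.72 RPKM in the TA pools and 33.3 ± 11.7 and 26.6 ± 13.7 RPKM in the GS pools, and neither passed the test.

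The smallest p-values in that list belonged to Lgi2, a secreted ligand of Adam22 family receptors, and to the scaffold genes Dlg2 and Dlg4. Lgi2 was at 38.8, 34.1 and 28.2 RPKM in the TA pools and 18.2, 7.82 and 20.4 RPKM in the GS pools, without overlap, with a log2 fold change of 1.16 ± 0.40 (SE) and a limma adjusted p of 0.377. Dlg2, which encodes PSD-93, was at 9.64, 10.2 and 7.77 RPKM in the TA pools and 2.75, 4.71 and 3.98 RPKM in the GS pools, without overlap, with an adjusted p of 0.391 by limma. Dlg4, which encodes PSD-95, was at 24.0, 14.5 and 20.1 RPKM in the TA pools and 6.64, 2.67 and 19.3 RPKM in the GS pools. GS replicate 3 overlapped the TA values of Dlg4, and GS replicate 2 was lowest, as it was for Lgi2 and Cntn2.

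**Figure D4:**
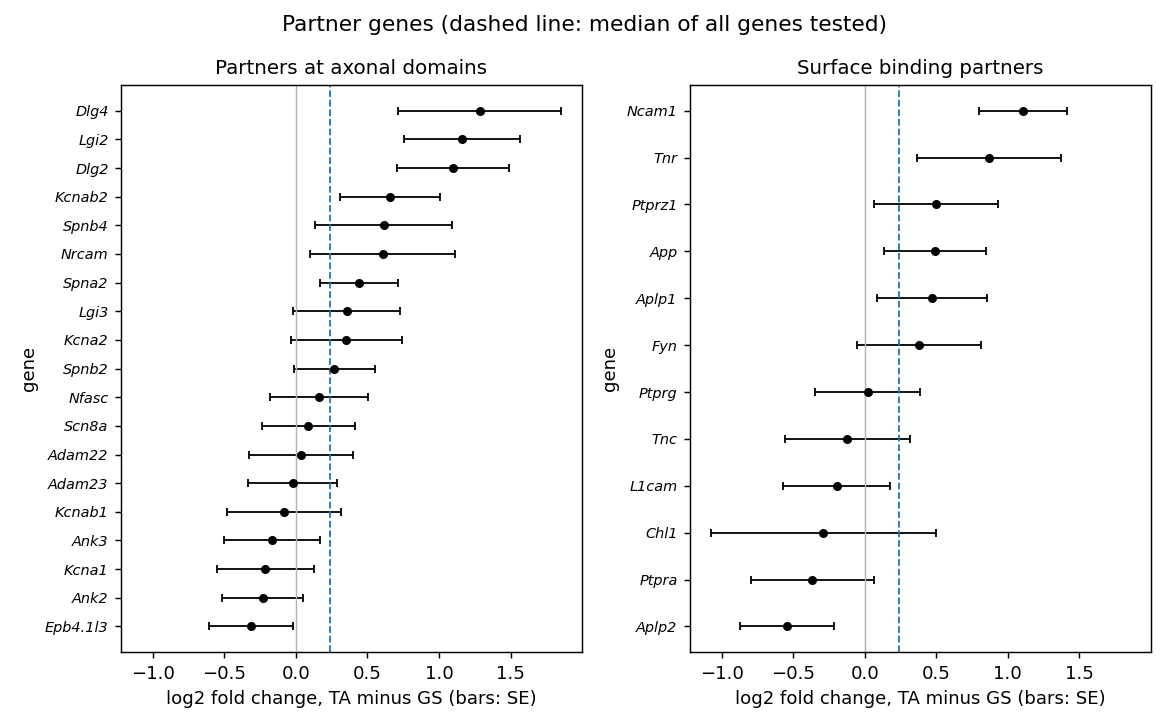
Fitted log2 fold change, TA minus GS, with SE bars (horizontal axis) of the partner genes tested, 19 of axonal domains (left) and 12 that bind contactins at the cell surface or act with them (right). The dashed line is the median of all genes tested, 0.24, and Ncam1, at 1.11, has the highest value of the right-hand list.

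Surface proteins that bind contactins or act with them formed the other list. Of its 13 genes 12 were tested and 0 were called with limma in either direction, with 1 towards TA and 0 towards GS at an unadjusted p under 0.05, a share near the 8.30% of all genes towards TA, and a median log2 fold change of 0.20. That gene was Ncam1, a neural cell adhesion molecule, at 57.9, 56.5 and 58.7 RPKM in the TA pools and 32.7, 21.0 and 26.2 RPKM in the GS pools. The muscles did not overlap, the log2 fold change was 1.11 ± 0.31 (SE) and the limma adjusted p was 0.269. The most abundant genes were the amyloid precursor-like gene Aplp1, the adhesion gene L1cam and the amyloid precursor gene App. Their means in TA and GS were 119 ± 38.1 and 89.0 ± 43.5 RPKM for Aplp1, 77.7 ± 19.7 and 93.3 ± 44.7 RPKM for L1cam, and 93.1 ± 10.1 and 70.0 ± 28.4 RPKM for App (SD, n = 3). App, which binds Cntn4 protein, overlapped between the muscles where Cntn4 did not. Tnr, the extracellular matrix protein tenascin-R and a ligand of contactins, was at 1.66 ± 0.955 RPKM in the TA pools and 0.399 ± 0.190 RPKM in the GS pools, with a limma adjusted p of 0.595. Aplp2 was at 40.6 ± 6.99 RPKM in the TA pools and 60.7 ± 17.4 RPKM in the GS pools, with an adjusted p of 0.610 by limma.

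**Figure D5:**
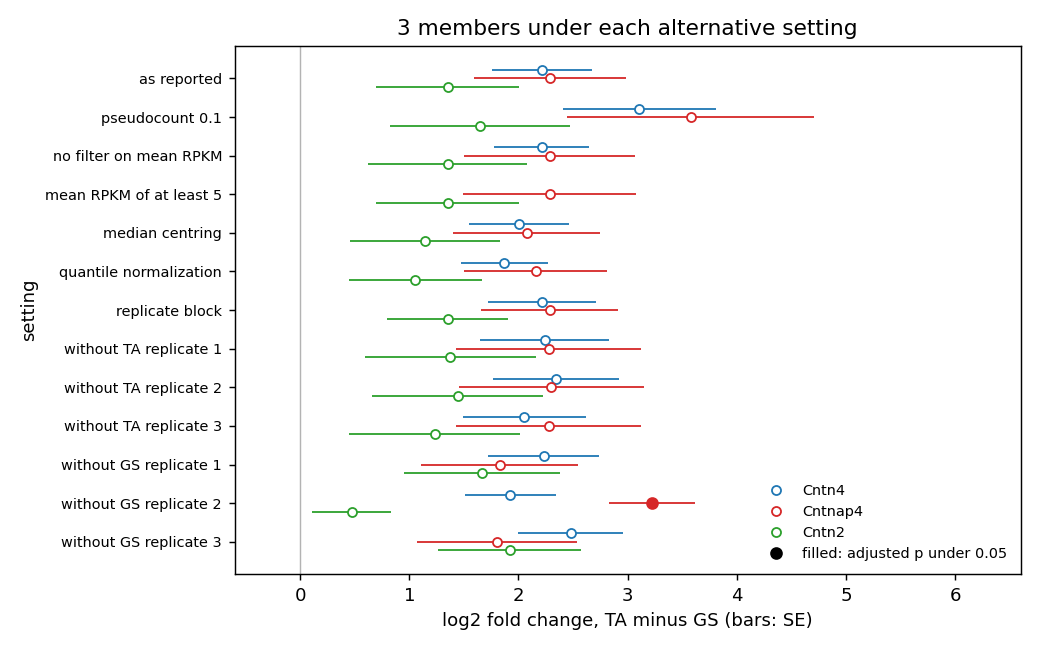
Fitted log2 fold change, TA minus GS, with SE bars (horizontal axis) of Cntn4, Cntnap4 and Cntn2 as reported and under each alternative setting (vertical axis), with filled points where the adjusted p was under 0.05. The filled point is Cntnap4 without GS replicate 2, at 3.22, and no Cntn4 value is shown for a mean of at least 5 RPKM because its mean of 4.53 RPKM lies below it.

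The genes with the pattern most like Cntn1 and Cntn4 over the 6 libraries were found by Pearson correlation on log2(RPKM + 1), as a description across libraries that share their depth and scaling. For Cntn1 they were Rabggtb, a subunit of a Rab prenyltransferase (r of 0.987), Rab35, a small GTPase (0.985) and the neurofilament gene Nefl (0.979), all with overlap between the muscles. For Cntn4 they were Gba2 (0.995), Kif21b (0.992) and Jak1 (0.992). Gba2, a glucosylceramidase, was at 4.62 ± 0.513 RPKM in the TA pools and 1.07 ± 0.381 RPKM in the GS pools, Kif21b, a kinesin, at 23.3 ± 0.777 and 11.9 ± 1.93 RPKM, and Jak1, a tyrosine kinase, at 55.4 ± 6.10 and 31.2 ± 4.32 RPKM (SD, n = 3).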

How the data were processed

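RNA from 6 pools of proprioceptors, 3 of TA and 3 of GS, was sequenced after amplification. Bowtie 0.12.9, DESeq (without a version) and the build mm9 appear in the submitters' processing notes. The sources used here do not name the program that counted reads per gene, its annotation or its use of strand. Per the file headers, the authors' table gives reads and RPKM per gene and library, and 683 genes had a value below 0. Per the file headers, the authors' lists of genes higher in TA or GS give a scaled read signal, a ratio (fold), a p-value and an RPKM per muscle.

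Genes with a value below 0 were left out, the row with the highest mean was kept per symbol, and genes with a mean of at least 1 RPKM entered a linear model in limma (version 3.58.1, run under R version 4.3.3) of log2(RPKM + 1), a scale that understates changes of low genes, with group as the only term and a mean-variance trend. No count model was used. The steps were tested on simulated data. The members and lists were chosen with earlier results of these data known. Named genes are all members, 4 further family genes, and from each partner list the called genes, or else the 3 with the smallest p, and the 3 with the highest mean. For the most abundant member and the member with the smallest p, the 3 most correlated genes are named. Other genes named beside a member were chosen after their values were seen. Coordinates are the table's, and ends are last bases. The alternatives were the pseudocount, filter, scaling, a replicate block and leaving out each library.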

Additional observations from a re-analysis of the deposited data

How the results depend on the processing

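No member was called under 11 of 12 alternatives, and without GS replicate 2 the number of members higher in TA was 1, Cntnap4 (0 to 1 over the left-out libraries). Over all genes, the numbers higher in TA and in GS were 7 and 6 with a pseudocount of 0.1, 0 and 0 with no filter (where 1251 and 250 had an unadjusted limma p under 0.05), 9 and 8 with a mean of at least 5 RPKM, and 11 and 17 with median centring. Leaving out each library gave 1 to 19 higher in TA and 1 to 10 higher in GS. With the replicate block they were 8 and 8, and no member was called. The correlations of same-numbered TA and GS libraries were -0.0744, -0.0185 and -0.135, and no TA library correlated best with its own number. Whether same-numbered pools share animals cannot be decided from correlations over so few libraries. Cntn1 reversed to -0.15 with median centring and -0.071 with quantile normalization, and ran from -0.16 to 0.20 without 1 library. Cntn5 reversed to -0.056 and -0.37, and ran from -0.14 to 0.69. Where a count moved, the cause was not tested. The other 6 members tested kept their direction under every alternative that gave a value. Cntn3, Cntn4 and Cntn5 gave none at a mean of at least 5 RPKM. Low depth limits Cntn3, Cntn5 and Cntn6, which rested on 46 to 270, on 39 to 272 and on 0 to 399 net reads per library.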

Other observations

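Genes that overlap a member or lie within 1000 bases of its ends were listed after the values had been seen, and 6 of them held reads. Gm15631, a long noncoding RNA gene on the opposite strand whose start has 78 bases between it and the start of Cntn4 in the table (mm9 chromosome 6, 105624749 to 105627575), was at 3.25, 5.91 and 0.570 RPKM in the TA pools and 0.483, 0 and 0 RPKM in the GS pools. Every TA value was above every GS value, as for Cntn4, but the values rested on 37, 58 and 14 net reads in TA and on 6 in GS, and the limma adjusted p was 0.399. In GENCODE M21 the starts of the pair lie 79 bases apart. Rbpsuh-rs3, a gene named as related to a Notch pathway factor that lies within Cntnap2 on the opposite strand, was at 9.04, 4.10 and 8.14 RPKM in the TA pools and 0.655, 0 and 2.14 RPKM in the GS pools, with a limma adjusted p of 0.205, while Cntnap2 itself overlapped between the muscles. Ezh1, a histone methyltransferase gene that ends 390 bases from Cntnap1, was at 5.34, 5.002 and 5.89 RPKM in the TA pools and 0.403, 4.15 and 3.39 RPKM in the GS pools, with 0.557 for the same quantity. Among all genes tested 13.1% had TA values above GS values without overlap, and strand was not stated for the counting, so reads of overlapping genes cannot be told apart.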
